A study of Mus musculus and Homo sapiens with 9 samples.

Results

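The T cell receptor gene segments were followed in RNA sequencing of a clonal human leukemia line and of polyclonal mouse T cells. A gene counted as a member when its annotation type was a T cell receptor variable (V), diversity (D), joining (J) or constant (C) gene, which gave 394 of 107684 rows over both count tables, 185 of 64252 in human and 209 of 43432 in mouse. The annotations list 197 human and 226 mouse genes of these types, and the 12 human and 17 mouse genes without a row were not analysed here. These include TRBD1, TRBJ1-1 to TRBJ1-6 and TRBV25-1 in human and Trdc and Trgj1 to Trgj3 in mouse.

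The human cells were J.gamma1, a T cell acute lymphoblastic leukemia (T-ALL) line derived from Jurkat and lacking phospholipase C gamma 1. They carried a stably integrated lentiviral hairpin, either a control (shNC, n = 2) or one against IRF2BP2 (shIRF2BP2, n = 2), a transcriptional cofactor, and were selected with puromycin. Both human groups therefore share 1 line, and which IRF2BP2 hairpin was sequenced is not given in the sources used here. The mouse cells were CD3+ T cells sorted magnetically from spleen. The knockout (KO, n = 2) came from Irf2bp2 fl/fl animals that carried Vav-iCre, a recombinase driven from a promoter active across blood cell lineages and not in T cells alone. The controls (n = 3), labelled wild type (WT), are described in the methods as Irf2bp2 fl/fl animals without the Cre, and neither age nor sex is in the labels. Nothing in the labels says that replicates were separate cultures or animals, so p-values measure the spread between these samples, which may be partly technical.

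A T cell receptor is a pair of chains, alpha with beta or gamma with delta, carried to the cell surface by the CD3 proteins. Each chain gene is assembled during thymic development by the RAG recombinase, which joins 1 V, in beta and delta also a D, and 1 J segment, and the joined exon is spliced to a C gene downstream. A clonal line therefore carries fixed rearrangements, whereas a spleen holds a great many, and transcripts of segments that were never joined (germline transcripts) can also be counted in such tables.

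The library totals ran from 26648204 to 31120236 counts in human and from 16668577 to 37177523 in mouse, with WT replicate 3 the shallowest. IRF2BP2 had 205 and 199 CPM, counts scaled to a common library total, in shNC and 79.0 and 93.8 in shIRF2BP2. Irf2bp2 had 112, 127 and 120 CPM in WT and 0 counts in both KO libraries, at least 1420-fold lower when 3 counts per library are taken as the limit that a count of 0 allows. Of the 8 T cell markers (CD3D, CD3E, CD3G, CD2, CD5, CD6, CD28, LCK), 8 were detected in each species. No 2 replicates agreed within sampling noise, the chi-square per degree of freedom between replicates being at least 17.7.

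The alpha and beta V counts of the line lay in few segments. Counts do not tell joined segments from germline transcripts, and which of these segments were joined was not tested. The sequences below, read from hg38, show the last bases of the leading alpha V segment and of the 3 beta V segments that held nearly all beta V counts in J.gamma1, on the coding strand and 5′ to 3′, with the heptamer of the recombination signal in capitals. For TRAJ3 the whole signal before the segment is shown, with its nonamer and heptamer in capitals. The heptamer is the RAG cutting point, so a V segment retains it only where it has not been joined.
TRAV8-4: gagtacttctgtgctgtgagtgaCACAGTG
TRBV28: tacctctgtgccagcagtttatgCACAGCG
TRBV12-3: tacttctgtgccagcagtttagcCACAGCG
TRBV12-4: tacttctgtgccagcagtttagcCACAGCG
TRAJ3: GGTTATCTCaaagaccttaccCACAGTG
These stretches lie at chr14:21895008-21895037, chr7:142721138-142721167, chr7:142560909-142560938, chr7:142564223-142564252 and chr14:22543151-22543178, all on the plus strand. The letters CACAGTG followed the V end directly in 48 of the 102 human V members on chromosomes 7 and 14 (47.1%), and CACAGCG, present after all 3 beta segments shown, in 14 of 102 (13.7%), 12 of them among the 45 beta V members. Before the J segments, CACAGTG stood in 8 of 73 (11%) and CACTGTG in 17 of 73 (23.3%). Only the coding strand at that fixed position was read, and a match or mismatch in letters says nothing of use in these cells.

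TRBV12-3 and TRBV12-4 share the 30 bases above and differ at 5 of the last 290 bases before the heptamer (98.3% identity), with a shared run of 198 bases. The window of 30 bases that holds most of the differences is printed with the differing bases in capitals, at chr7:142560704-142560733 and chr7:142564018-142564047.
TRBV12-3: gagatgtaaaccaatttcaggCcacAactC
TRBV12-4: gagatgtaaaccaatttcaggAcacGactA
Reads that miss those positions cannot be assigned to either gene from their sequence, so the separate counts of TRBV12-3 and TRBV12-4 are uncertain and their sum is the safer quantity.

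In J.gamma1, 56 of the 185 members had any count and 129 were at 0 in all 4 libraries. The limit under such a 0 is 3 counts, or 0.0967 to 0.116 CPM depending on the library. Every one of the 11 delta members, TRDC among them, was at 0. On chromosome 14 the counts stopped and started in blocks. The 12 members before TRAV8-2 had none. All 14 from TRAV8-2 to TRAV19 had counts, 6851 in total over the libraries. The 51 members from TRAV20 to TRAJ38, delta segments included, had none. From TRAJ37 to TRAJ1, 7 of 35 had counts, 313 in total. The silent stretch between TRAV19 and TRAJ37 spans 496 kb, and the block limits were set after the values were seen.

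TRAV8-4 (chr14:21894433-21895030) led the alpha V segments in every human library. It took 80.8% of the V counts of the locus in shNC replicate 1 (95% Wilson interval 78.5 to 83.0), 81.3% in replicate 2, and 82.4% and 79.9% in the shIRF2BP2 libraries. These intervals cover counting error only. TRAV18 came next at 9.34 to 11.7%. Among the J segments TRAJ3 (chr14:22543179-22543240), which ends 4266 bases before TRAC, had 45 and 69 counts in shNC and 85 and 83 in shIRF2BP2, or 88.5 to 93.8% of all alpha J counts. No other J member passed 6 counts in a library. Per kilobase of exon, TRAV8-4 and TRAC were at nearly the same level in each library, the ratio running from 0.941 to 1.04. The alpha locus therefore showed 1 leading V and 1 leading J segment in all 4 libraries, with the knockdown and control ranges overlapping for both shares.

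At the beta locus 3 of 45 V members held almost everything. The other 42 had 21 counts in total over the 4 libraries and at most 5 in any 1. TRBV28 (chr7:142720660-142721160) took 53.4% (52.2 to 54.5) and 49.9% (49.0 to 50.9) of the V counts in shNC, a mean of 51.7% ± 2.43 (SD, n = 2). In shIRF2BP2 it took 22.98% and 24.2%. There the leading segment was TRBV12-3 (chr7:142560423-142560931), with 45.8% and 45.7%, followed by TRBV12-4 with 31.1% and 30.1%. Summed, this pair held 46.4% and 50.01% in shNC and 76.95% and 75.8% in shIRF2BP2. The pair was thus level with TRBV28 in shNC replicate 2, and which segment led in shNC depends on the uncertain split. The ratio of TRBV28 counts to the sum of TRBV12-3 and TRBV12-4 was 1.15 and 0.999 in shNC and 0.299 and 0.319 in shIRF2BP2, so the groups did not overlap in this ratio. Within the near-identical pair the groups lay close, TRBV12-4 having 0.660 to 0.701 counts for each TRBV12-3 count in all libraries. For single ratios such as these, an exact two-sided permutation test of 2 against 2 libraries cannot go below p = 0.333, and no p is given.

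**Figure D1:**
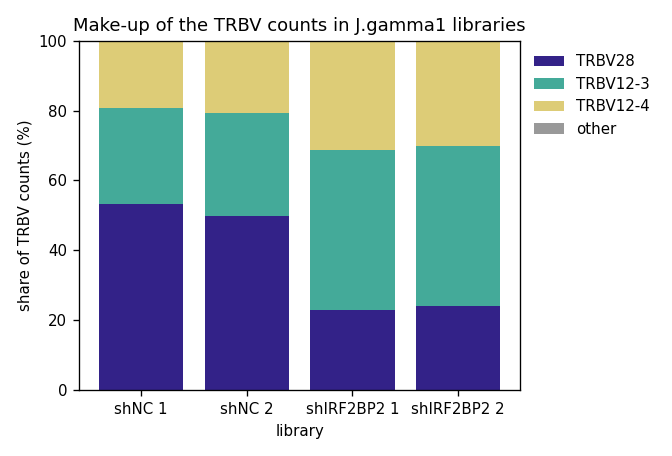
Stacked bars give the share (%) of all TRBV counts in each J.gamma1 library, with TRBV28 at the bottom, then TRBV12-3, TRBV12-4 and all other beta V members. TRBV28 filled 53.4% and 49.9% of the shNC bars, and TRBV12-3 led in both shIRF2BP2 bars with 45.8% and 45.7%. The sum of TRBV12-3 and TRBV12-4, whose split is uncertain, filled 46.4% and 50.01% in shNC and 76.95% and 75.8% in shIRF2BP2.

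The knockdown was tested over 15819 human genes with edgeR's quasi-likelihood test, and a gene was called when its Benjamini-Hochberg adjusted p was under 0.05 and its log2 fold change (log2FC) at least 0.5 in size. Of the members, 19 passed the filter on low counts. All 5 beta members tested fell, and TRAC, TRAV8-4 and both gamma constant genes rose: 5 members were called lower, against 5.01% of all genes tested, and 4 higher, against 5.46%. The median log2FC was 0.27 over the 19 members and 0.01 over all genes. Groups did not overlap for 6 members that were lower and 10 that were higher, where 28.7% and 29.6% of all genes did so in those directions. The members that passed are too few for these shares to describe the receptor loci as a whole.

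TRBV28 had 152 and 157 CPM in shNC and 10.7 and 15.9 CPM in shIRF2BP2. Its log2FC of -3.53 (SE 0.19, edgeR adjusted p = 0.000414) was the most negative of the 19. TRBV12-3, the V segment known from the Jurkat receptor, had 77.7 and 92.4 CPM against 21.4 and 30.1 (log2FC -1.72, SE 0.18, adjusted p = 0.00222). TRBV12-4 had 54.1 and 64.8 CPM against 14.6 and 19.9 (log2FC -1.79, adjusted p = 0.00198). All 3 were lower in both knockdown libraries than in either control library.

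TRBC1 (chr7:142791694-142793368), the constant gene paired with the first D and J cluster, had 138 and 212 CPM in shNC and 52.0 and 71.1 in shIRF2BP2. It fell by 1.51 on the log2 scale (SE 0.23, adjusted p = 0.00699). TRBC2 (chr7:142801041-142802748), the constant gene of the second cluster, had 42.5 and 52.1 CPM against 30.7 and 29.6, and fell by 0.65 (SE 0.14, adjusted p = 0.0289). TRBC1 counts were 3.25 and 4.08 times TRBC2 counts in shNC and 1.69 and 2.40 times in shIRF2BP2, with no overlap between the groups. TRBC2 was no longer called when either knockdown library or shNC replicate 2 was left out, its log2FC then being -0.70, -0.62 and -0.50. The 8 TRBJ2 members, which lie between TRBC1 and TRBC2, had 17 to 24 counts in all per library, none passed the filter, and the TRBJ1 genes were not analysed here.

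TRAC (chr14:22547506-22552156), the single alpha constant gene, had 75.4 and 88.7 CPM in shNC and 116 and 118 in shIRF2BP2. It rose by a log2FC of 0.51 (SE 0.13, adjusted p = 0.0401), just past the size needed for a call. TRAV8-4 had 36.8 and 40.0 CPM against 56.0 and 58.7 (log2FC 0.58, SE 0.12, adjusted p = 0.0246). TRAJ3 had 1.74 and 2.22 CPM against 2.92 and 2.82 and was not called (log2FC 0.53, adjusted p = 0.335). All 3 lay higher in both knockdown libraries. TRAV18 (log2FC 0.71, adjusted p = 0.11), TRAV17 (0.87, 0.269), TRAV8-2 (0.35, 0.777), TRAV8-6 (0.27, 0.815) and TRAV19 (0.22, 0.703) were not called. TRAC was not called without shNC replicate 1 (log2FC 0.39) or without either knockdown library (0.50 and 0.49), and TRAV8-4 not without either knockdown library (0.59 and 0.54).

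The constant genes of the 2 chains went in opposite directions. TRAC had 0.417 and 0.335 counts for each TRBC1 plus TRBC2 count in shNC and 1.40 and 1.17 in shIRF2BP2. By the level per kilobase, the control order of the mean was TRBV28 (424 CPM per kb), the sum of TRBV12-3 and TRBV12-4 (354), TRBC1 (231), TRAC (83.9), TRAV8-4 (81.9) and TRBC2 (62.4). In the knockdown the order of the mean was TRAV8-4 (122), TRAC (119), the TRBV12 pair (105), TRBC1 (81.0), TRBC2 (39.8) and TRBV28 (36.7). TRAC and TRAV8-4 overlapped between libraries in each group. In the knockdown the TRBV12 pair, at 88.3 and 122.6 CPM per kb, overlapped with TRBC1, TRAC and TRAV8-4. TRBC2 and TRBV28 overlapped there too, so the knockdown order holds for the means and not for each library. The separate levels were 208 for TRBV12-3 and 146 for TRBV12-4 in the controls and 63.0 and 42.4 in the knockdown, with the uncertain split named above.

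**Figure D2:**
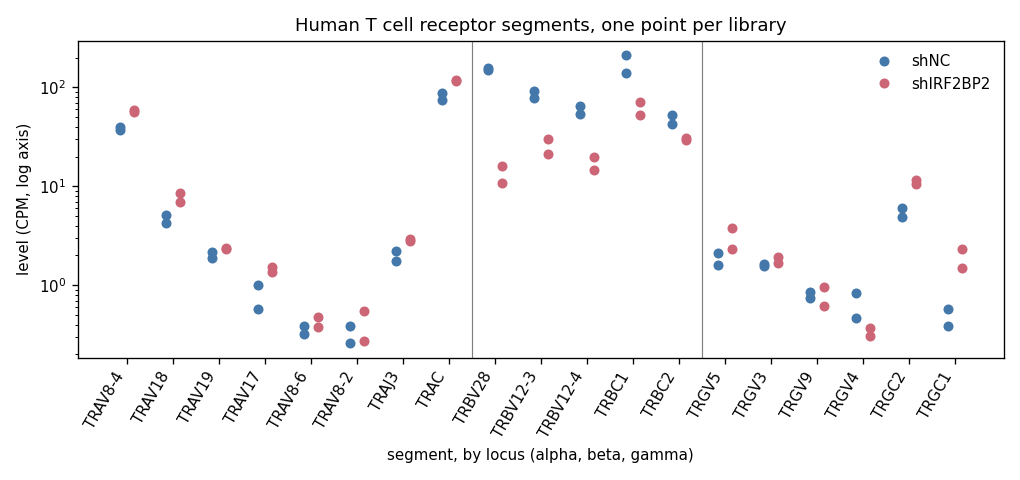
Each point is 1 J.gamma1 library (shNC blue, shIRF2BP2 red), plotted as CPM on a log axis for the 19 members that passed the filter, ordered by locus with lines between alpha, beta and gamma. All 5 beta members lay lower in both knockdown libraries, and TRAC, TRAV8-4, TRGC1 and TRGC2 lay higher.

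Gamma transcripts were also present in this alpha-beta line, at low level. TRGC2 (chr7:38239580-38249572) had 4.94 and 6.03 CPM in shNC and 10.6 and 11.5 in shIRF2BP2, a log2FC of 1.01 (SE 0.22, adjusted p = 0.0265). TRGC1 (chr7:38257879-38265678) had 10 and 18 counts against 44 and 68, or 0.386 and 0.580 CPM against 1.51 and 2.31 (log2FC 1.96, SE 0.48, adjusted p = 0.0388). Both gamma constant genes were higher in both knockdown libraries. With all libraries no gamma V member was called by edgeR or by DESeq2, and 0 of the 4 tested had an unadjusted p under 0.05 in edgeR. TRGV5 (log2FC 0.74, adjusted p = 0.247), TRGV3 (0.18, 0.797), TRGV9 (-0.02, 0.985) and TRGV4 (-0.93, 0.352) had levels between 0.309 and 3.81 CPM. TRGV8 had 22 counts in shIRF2BP2 replicate 2 and 0 in the other 3 libraries, and was called higher only when shIRF2BP2 replicate 1 was left out. TRGJ2, the only gamma J member with counts, had 4 and 5 counts in shNC and 9 and 10 in shIRF2BP2. The 2 gamma calls were lost when either knockdown library was left out (TRGC2 log2FC 1.04 and 0.94, TRGC1 2.21 and 1.62), and that of TRGC1 also without shNC replicate 1 (1.71).

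The genes that act with the receptor did not share 1 direction in J.gamma1. Of 18 receptor complex and proximal signalling genes, 2 were called lower, CD3D and PTCRA, and 5 higher, TRAT1, LAT, LCP2, CD28 and CD6, with a median log2FC of 0.06. CD3D, a CD3 chain, had 220 and 231 CPM in shNC and 122 and 139 in shIRF2BP2 (log2FC -0.79, adjusted p = 0.00859), whereas CD3E (0.12, 0.617), CD3G (0.00, 0.991) and CD247 (-0.14, 0.536) were not called. Of 11 genes of V(D)J recombination, 4 were called lower and none higher by edgeR, with a median of -0.28: RAG1, RAG2, DNTT, which adds bases at the joins, and HMGB1. RAG1 had 60.9 and 30.2 CPM against 6.87 and 6.95.

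Markers of other cells ranged from 0 to 119 CPM in the human libraries. Summed over 6 myeloid markers the level was 0 to 0.814 CPM, with LYZ, CSF1R and S100A8 at 0 in each library, and MS4A1 of the B cell list was also at 0. Of the 5 B cell markers CD79A was called lower (mean 53.0 against 12.6 CPM), and of the 4 natural killer markers EOMES was called higher (11.8 and 11.3 against 112 and 119 CPM). Of the 10 erythroid markers HBA2 was called higher, at no more than 0.893 CPM. None of the 4 gamma-delta T cell markers was called, their sum being 20.9 and 21.1 CPM in shNC and 17.5 and 18.5 in shIRF2BP2. Their part in the receptor results was not tested.

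The mouse libraries held the other extreme of usage. Of 209 members, 208 had counts, the exception being Trdd1. Trbv13-2, the leading beta V segment in each of the 5 libraries, took 13.7%, 13.5% and 13.9% of the beta V counts in WT (13.7% ± 0.237, SD, n = 3) and 12.9% and 13.1% in KO. The effective number of segments, the inverse of the summed squared shares, was 14.95 to 15.06 of 21 beta V members in WT and 14.7 to 14.8 in KO. In J.gamma1 it was 2.53 and 2.64 of 45 in shNC and 2.78 and 2.79 in shIRF2BP2. With TRBV12-3 and TRBV12-4 taken as 1 segment, an alternative chosen after the data were seen, it was 1.998 and 2.002 in shNC and 1.55 and 1.58 in shIRF2BP2, so the order of the groups turned with the treatment of this pair. For alpha V, with identical mouse copies counted apart, it was 66.4 to 70.1 of 99 in WT and 62.8 to 66.1 in KO. In the line it was 1.45 to 1.53 of 45. The tables of the 2 species were made separately, so these values are set side by side without a test.

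**Figure D3:**
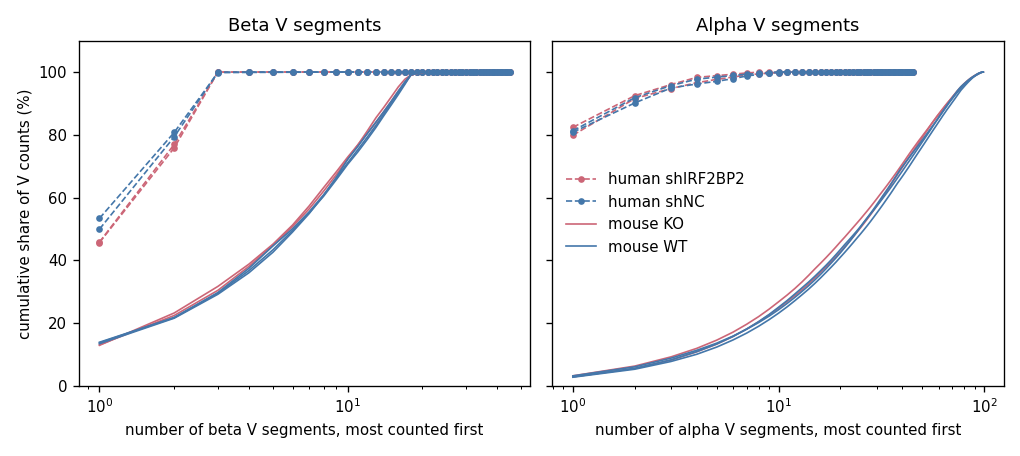
Lines give the cumulative share (%) of V counts against the number of V segments, most counted first, on a log axis, for beta (left) and alpha (right), 1 line per library (human dashed with points, mouse solid). The 3 leading beta V segments held nearly all counts in J.gamma1, whereas in mouse it took 15 or 16 beta and 66 to 70 alpha V segments to reach 90%. Identical copies among the mouse alpha V segments were counted apart.

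No alpha V segment stood out in mouse. With each copy counted as its own member, Trav7-4 led in 4 of the 5 libraries with 2.78 to 3.21% of the alpha V counts. Trav9-1 led in KO replicate 2 with 3.23%. Copies of segments in the enlarged mouse alpha locus limit these figures, since 28 alpha V members form 14 pairs with an identical annotated transcript. Trav14d-1 and Trav14n-1, named as such a pair, had 740 and 647 counts over the 5 libraries, and only their sum is secure. Shares and leaders with such pairs summed were not computed, and a summed pair may hold a larger share than Trav7-4. Among J segments Trbj2-7 led the beta J counts in 4 libraries, with 14.1 to 18.6%, and Trbj2-1 in KO replicate 1 with 13.6%. The alpha J counts were spread over 50 members, with a different leader in each library and no share above 7.51%.

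The knockout was tested over 15350 mouse genes by the same test, with a call at an adjusted p under 0.05 and a log2FC of at least 1 in size. None of the 191 members that passed the filter was called by edgeR, lower or higher, where 0.111% of all genes were called lower and 2.47% higher. At an unadjusted p under 0.05 edgeR gave 20 members (10.5%), each of them lower. Over all genes tested the share was 16.2% with both directions pooled, and the share of all genes that were lower was not computed. DESeq2, which also made no call, gave 19 members, with an adjusted p under 0.05 at any fold for 5. By sign alone, of the 191 members, 137 were lower and 54 higher, with a median log2FC of -0.22 against -0.02 over all genes tested. Groups did not overlap for 55 members lower in KO (28.8%), where 17.8% of all genes did so, and for 7 members higher in KO (3.66%), where 18.2% of all genes did so.

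Of the 21 beta V segments, 20 were lower, with a median log2FC of -0.51. In 15 (71.4%) the KO lay below all controls, where 17.8% of all genes did so. An unadjusted edgeR p under 0.05 was found for 12 (57.1%), where 16.2% of all genes had it in either direction. Trbv13-2 had 65.5, 61.5 and 57.5 CPM in WT and 42.8 and 41.5 in KO (log2FC -0.55, SE 0.12, edgeR adjusted p = 0.0819), the lowest adjusted p of any member. Trbv1 had 37.8, 34.9 and 32.3 CPM against 21.1 and 24.1 (log2FC -0.63, adjusted p = 0.0947), and Trbv12-2 had 36.8, 29.5 and 29.8 against 19.3 and 21.3 (-0.66, 0.111). All 3 were lower in both KO libraries than in any control. Trbv16 gave -0.34 (0.358), and Trbv3, with 38.5, 37.1 and 32.2 CPM against 34.1 and 29.6, overlapped between the groups (-0.18, 0.642).

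Trbv5 had the most negative log2FC of the beta V members, and is named after its values were seen. It had 23.1, 26.9 and 25.4 CPM in WT, 15.5 in KO replicate 1 and 4.45 in KO replicate 2, so that 1 library carried most of the difference (log2FC -1.33, SE 0.48, adjusted p = 0.241). Without KO replicate 1 it was the single member called lower (-2.52, adjusted p = 0.0468), and without KO replicate 2 its log2FC was -0.72. The 2 D segments, of 12 and 14 bases, had 0.813 to 1.72 CPM and overlapped between groups. The 13 beta J segments had a median of -0.07, with 8 lower and 5 higher. Trbj2-7 had 11.3, 12.9 and 11.0 CPM in WT and 9.16 and 9.66 in KO (-0.32, 0.513).

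The mouse constant genes of the alpha and beta chains were each lower in both KO libraries than in any control, and none was called. Trac (chr14:54220521-54224206 in mm10) had 403, 533 and 337 CPM in WT and 309 and 321 in KO (log2FC -0.43, SE 0.21, adjusted p = 0.378). Trbc1 had 572, 668 and 461 CPM against 406 and 416 (-0.46, 0.275). Trbc2 had 988, 1273 and 792 CPM against 644 and 627 (-0.68, SE 0.21, 0.189). The ratios between them did not overlap between the groups: Trbc1 had 0.579, 0.524 and 0.582 counts for each Trbc2 count in WT and 0.630 and 0.664 in KO, and Trac had 0.258, 0.275 and 0.269 for each beta constant count in WT and 0.294 and 0.307 in KO. The spread of the controls was wide for these 3 genes, WT replicate 2 being highest and replicate 3 lowest, and without WT replicate 2 the log2FC of Trac was -0.22.

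**Figure D4:**
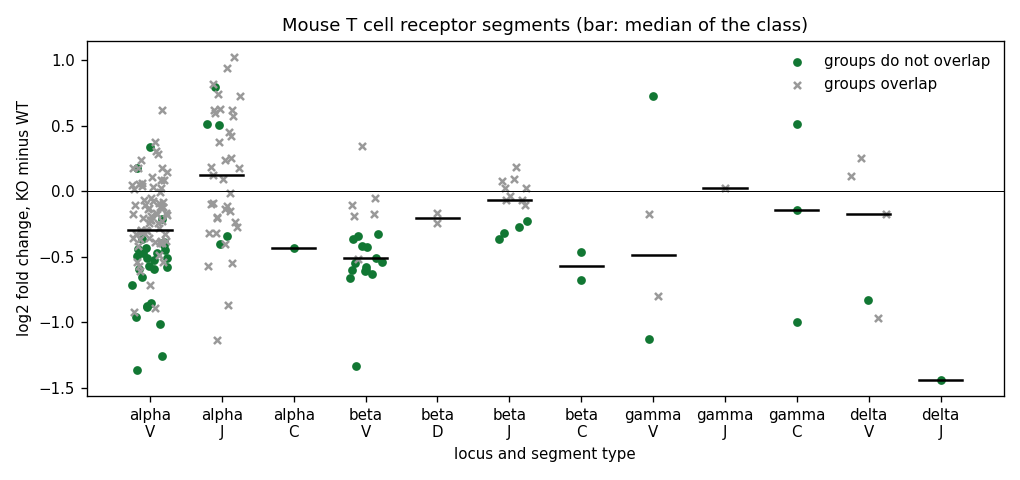
Each symbol is 1 mouse member that passed the filter, with its log2 fold change (KO minus WT) against locus and segment type. Circles mark members whose groups did not overlap, crosses those that overlapped, and bars the median of the class. Beta V members lay mostly under 0 (median -0.51), alpha V less so (-0.30), and alpha J spread to both sides (0.13).

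Alpha V segments also leaned lower, with 76 of 97 lower and a median log2FC of -0.30. The KO lay below all controls for 26 (26.8%) and above them for 2 (2.06%), where 17.8% and 18.2% of all genes did so. An unadjusted edgeR p under 0.05 was found for 4 (4.12%), where 16.2% of all genes had it in either direction. Members with an identical copy are not separate observations. Trav7-4 had 6.99, 7.83 and 6.01 CPM in WT and 5.80 and 4.82 in KO (log2FC -0.39, adjusted p = 0.543), and Trav5-4 had 5.78, 7.05 and 3.88 against 4.83 and 4.62 (-0.24, 0.786). Trav5-4 overlapped between the groups and Trav7-4 did not. Alpha J segments did not lean lower: 19 were lower and 22 higher of 41 that passed the filter, with a median of 0.13. Alpha J counts were 6.25, 4.95 and 7.38% of Trac counts in WT and 7.75 and 10.4% in KO.

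Along the alpha locus the J counts were not placed alike in each library. The last 6 J members before Trac (Traj7 to Traj2) held 10.9 and 8.29% of the J counts in WT replicates 1 and 2, and 27.1% in WT replicate 3. They held 16.3 and 20.6% in KO. The KO values lay between those of the controls, so the groups overlapped. V segments of the third nearest Trac held 47.3, 46.8 and 45.0% of alpha V counts in WT and 49.1 and 50.9% in KO, where the groups did not overlap. A J segment is shorter than a read and a table built from coverage gives it part of a read, so J counts are not whole reads.

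At the mouse gamma locus the groups differed in the ratios of segments, while the summed level overlapped. In total the gamma C members had 18.8, 23.3 and 15.8 CPM in WT and 18.7 and 18.9 in KO. Tcrg-C1 (chr13:19214103-19217024 in mm10) had 5.83, 9.35 and 4.82 CPM in WT and 3.47 and 3.24 in KO (log2FC -0.99, SE 0.36, adjusted p = 0.245), and its log2FC was -0.65 without WT replicate 2, the highest control. Tcrg-C2 (chr13:19304649-19307551) had 7.37, 9.07 and 6.32 against 10.6 and 11.2 (0.52, SE 0.24, 0.363). Tcrg-C4 had 5.61, 4.73 and 4.63 against 4.54 and 4.51 (-0.14, 0.852). The ratio of Tcrg-C1 to Tcrg-C2 counts was 0.791, 1.03 and 0.762 in WT and 0.328 and 0.290 in KO, well apart.

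For Tcrg-C1 and Tcrg-C2, a V segment beside each lay in the same direction as the constant gene. Of the 4 gamma V members tested, 3 were lower in KO and 1 was higher, with a median log2FC of -0.49. Only the lowest and the highest of the 4, Tcrg-V4 and Trgv2, are set beside a constant gene here. The remaining V members and Tcrg-C4 were not compared in this way. Tcrg-V4, upstream of Tcrg-C1 on the plus strand, had 2.13, 2.21 and 2.31 CPM in WT and 1.07 and 0.958 in KO (log2FC -1.13, SE 0.36, adjusted p = 0.196). Trgv2, which lies with Tcrg-C2 on the minus strand, had 2.81, 2.60 and 2.002 CPM against 4.20 and 4.03 (0.73, SE 0.31, 0.314). Trgv2 took 39.1, 42.3 and 29.6% of the gamma V counts in WT and 61.0 and 61.4% in KO. The ratio of Tcrg-V4 to Trgv2 was 0.760, 0.851 and 1.16 in WT and 0.255 and 0.238 in KO. These ratios were looked at after the values of the members were seen. An exact two-sided permutation test of 2 against 3 libraries cannot go below p = 0.1, and no gamma member was called.

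**Figure D5:**
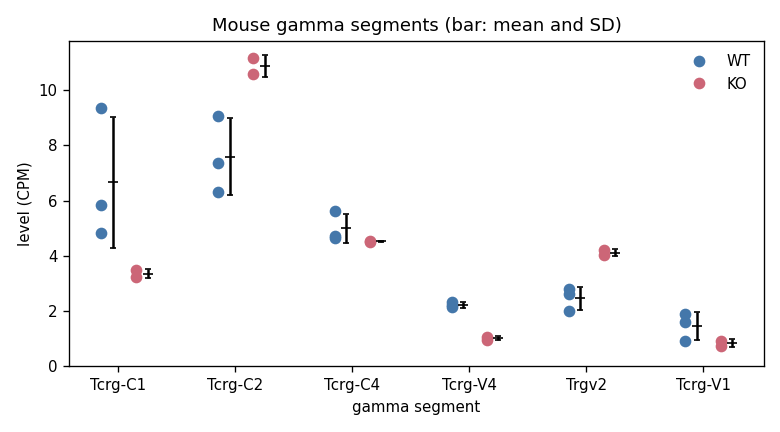
Points give the CPM of 6 gamma segments in each mouse library (WT blue, KO red), with the mean and SD beside them. Tcrg-C1 and Tcrg-V4 were lower in both KO libraries than in any control, and Tcrg-C2 and Trgv2 were higher.

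Delta members were few and low in spleen. The 5 delta V members summed to 4.81, 4.48 and 5.76 CPM in WT and 4.54 and 3.97 in KO, with Trdv1 at 1.27 to 1.72 CPM in each library. Trdj1, the more counted of the 2 delta J members, had 0.567, 0.387 and 0.501 CPM in WT and 0.183 and 0.169 in KO (log2FC -1.44, SE 0.63, adjusted p = 0.33). The groups did not overlap for Trdj1, at 6 to 21 counts per library. Trdc was not analysed here.

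Other T cell genes leaned lower with the receptor members, and markers of other cells differed between the mouse groups. In bulk samples, fewer cells of a type and less RNA per cell cannot be told apart. Of 17 receptor complex and signalling genes tested, 16 were lower and 1 higher, none was called by edgeR, and the median log2FC was -0.43. Cd3d, Cd3e, Cd3g and Cd247 gave -0.62, -0.47, -0.56 and -0.43. Cd8b1 gave -0.94 (adjusted p = 0.0211), Cd8a -0.60 (0.0676) and Cd4 -0.07 (0.872), so Cd8b1 passed the p and fell short of the size. The 8 T cell markers summed to 3402 to 3979 CPM in WT and 2657 and 2855 in KO. Of the V(D)J recombination genes 10 were tested, 5 lower and 5 higher, and none was called. Dntt had 10.3, 8.35 and 9.14 CPM in WT and 3.94 and 4.11 in KO (-1.20, 0.0588).

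Of the 10 erythroid markers with a row, all were higher in KO, with Slc4a1, Klf1 and Gata1 among those called. Their sum was 2255, 1268 and 592 CPM in WT and 4362 and 6161 in KO. The 5 B cell markers summed to 114, 216 and 25.5 CPM in WT and 77.0 and 24.3 in KO, the 6 myeloid markers to 122, 331 and 29.9 against 101 and 57.0, and the 4 natural killer markers to 200.1, 162 and 133 against 98.4 and 125. The 4 gamma-delta markers summed to 27.1, 47.8 and 16.2 CPM in WT and 11.1 and 7.94 in KO, with 4 of 4 log2FC below 0, and 5830411N06Rik was called lower (-2.09, adjusted p = 0.0275). The part of these cells in the receptor results was not tested.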

How the data were processed

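RNA was sequenced from J.gamma1 cells (2 shNC, 2 shIRF2BP2) and mouse splenic CD3+ T cells (3 WT, 2 KO) as paired-end reads from a TruSeq kit that does not mark strand. The submitters' processing notes name HISAT2 2.2.0, StringTie, and the builds hg38 and mm10. The authors deposited 1 table of whole-number counts per gene for each species. StringTie derives such counts from coverage, and how reads with several positions were handled is not given in the sources used here. Gene types, names, coordinates and exon lengths came from GENCODE v44 and M21. The 8147 human and 970 mouse rows without an identifier in these annotations were left out (98.0% and 99.8% of counts were kept). Whether any of them are further copies of beta segments, which would add to the beta counts, was not tested.

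Here, low genes were removed by filterByExpr, TMM factors were computed, and a model of group alone was fitted in edgeR 4.0.16 (R 4.3.3). DESeq2 1.42.0, other scaling and filters, a replicate block and leaving out each library were alternatives. Adjusted p-values are Benjamini-Hochberg over all genes tested. The scripts were tested on simulated data. CPM uses TMM-scaled totals, and CPM per kb divides by exon length. Shares are counts of a segment over those of its locus and type, with 95% Wilson intervals (SciPy 1.17.1) that cover counting error only.

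Members, lists and tests were chosen with earlier results of these data known. The naming rule took C segments that passed the filter, called members, and fixed lists of receptor partners and cell markers. It also took up to 5 V, D and J members per locus with the highest mean in either group. It gave 18 human and 46 mouse members. Fold changes are printed for 19 human and 18 mouse members, so most mouse members under the rule are not shown. All human members that passed the filter are printed, and Trbv5 is marked as chosen after its values were seen. Deviations from group means correlated at 0.287 between human libraries of the same number and at 0.21 and -0.109 in mouse. With 2 libraries per group the human value is the same for both numbers. These values do not decide whether the numbers pair the libraries. The main model was unpaired, and the replicate block was an alternative.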

Additional observations from a re-analysis of the deposited data

Results flagged for a closer look

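TRAC was higher in both shIRF2BP2 libraries (log2FC 0.51), while Trac was lower in both KO libraries than in any WT library (log2FC -0.43, or -0.22 without WT replicate 2). Trac was not called (edgeR adjusted p = 0.378). The call of TRAC was lost without shNC replicate 1, without either knockdown library, and when every gene with a count was tested. The directions were opposite in these samples, the difference between the 2 systems was not tested, and the systems differ in species, cell state and kind of perturbation.

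A V segment annotated as a pseudogene, and so no member, was also counted in J.gamma1. TRGV7 had 0.888 and 0.483 CPM in shNC and 3.13 and 2.95 in shIRF2BP2, above the level in the control libraries (log2FC 2.15, edgeR adjusted p = 0.0191).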

How the results depend on the processing

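The 5 members lower in shIRF2BP2 numbered 4 to 5 under all alternatives run, and 4 without each library in turn except shNC replicate 1 (5). TRBV28, TRBV12-3, TRBV12-4 and TRBC1 were called in every one. Higher calls numbered 4 with all libraries, 0 when every gene with a count was tested, 0 to 4 when 1 library was left out, and 5 with the replicate block, which added TRAV18 (log2FC 0.71, adjusted p = 0.0362) and changed no other call. Without shIRF2BP2 replicate 1 the single higher call was TRGV8, and TRAC, TRAV8-4, TRGC1 and TRGC2 were all lost. With 3 libraries left, the lone sample is assumed to vary like the other group. No mouse member was called under 6 alternatives with all libraries, the replicate block included, and 0 to 1 lower and 0 higher when 1 library was left out. The leading TRBV share was 54.5% in shNC and 15.8% in WT when counts were divided by exon length, and without 1 replicate it ran from 49.9 to 53.4% and from 13.6 to 13.8%. TRAV8-2 and TRGV9, not called, changed sign when 1 library was left out, ranging from -0.22 to 0.73 and from -0.36 to 0.23. Members under about 20 counts, among them most human J members and both mouse delta J members in most libraries, are limited by depth.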
